A study of Mus musculus with 2 samples.

Results

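The 9 genes examined here encode the Hedgehog ligands (Shh, Ihh and Dhh), the membrane proteins that receive or trap them (Ptch1, Smo and Hhip) and the Gli transcription factors (Gli1, Gli2 and Gli3). They are defined by gene symbol, in a rule that uses no measured value, and are 9 of 43346 annotated genes in the tables. Their levels were measured by total RNA sequencing in limbs of B6NCrl mouse embryos, 14.5 days old, in 1 group of 2 libraries that the labels give as biological replicates 1 and 2. No treatment, mutation or control group was part of the design, so the comparisons are between genes, between transcripts of a gene and between the 2 libraries. The input was 10 ng of RNA over 200 nt per library, mixed with spike-in RNAs, and per the labels a sample comprised all 4 limbs of 1 pup.

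A Hedgehog ligand binds Patched at the cell surface and thereby releases Smoothened, which acts in the primary cilium and changes the Gli proteins from repressors into activators of transcription. Ptch1, Hhip and Gli1 are themselves targets of the pathway in vertebrates, and the proteins of Ptch1 and Hhip bind and retain the ligand. In the limb, Sonic hedgehog is the posterior signal of the early limb bud, Indian hedgehog is made by prehypertrophic cartilage cells of the growing skeleton, and Desert hedgehog is made by Schwann cells of the nerves.

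The libraries held 34193161 and 32879425 expected counts in replicates 1 and 2, of which 5.29% and 5.20% were spike-ins. The labels of the 2 samples share a donor identifier, a pup number and a pregnancy number but differ in the day of collection, and both say pooled male and female. The sex-linked counts went against that label. The Y-linked genes Ddx3y, Uty, Kdm5d and Eif2s3y had 2868, 1123, 1320 and 1320 counts in replicate 1 and 0 each in replicate 2, whereas Xist had 11.4 counts in replicate 1 and 29957 in replicate 2. A single animal does not give both patterns, so the samples were taken as separate animals in spite of the shared numbers. Each difference between the libraries is therefore also one between a library with Y-linked RNA and one without it, and between collection days, and these cannot be told apart. Each SD over n = 2 holds that spread. The tissue label fitted its markers, since 6 of 6 genes of limb mesenchyme, 3 of 3 of cartilage and 3 of 3 of muscle reached 1 TPM (a level per transcript length, with equal totals in both libraries) in both libraries. Of 7 markers of neighbouring organs 0 reached it, with a summed 2.15 and 2.35 TPM and Neurod1 at 0 in both, and of 3 markers of notochord and floor plate 0 did.

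The genes of ligand reception and response were well above the ligand genes. Of the 9 genes, 8 reached 1 TPM in both libraries, where 34.0% of all annotated genes and 61.4% of protein-coding genes did. The summed level of the 9 genes was 148 TPM in replicate 1 and 174 TPM in replicate 2. The median protein-coding gene stood at 4.93 TPM, and the median of those at 1 TPM or more in both libraries was 18.6 TPM. Shh and Dhh lay below the first of these medians and Ihh lay close to it, while the other 6 genes lay between 13.5 and 47.2 TPM.

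**Figure D1:**
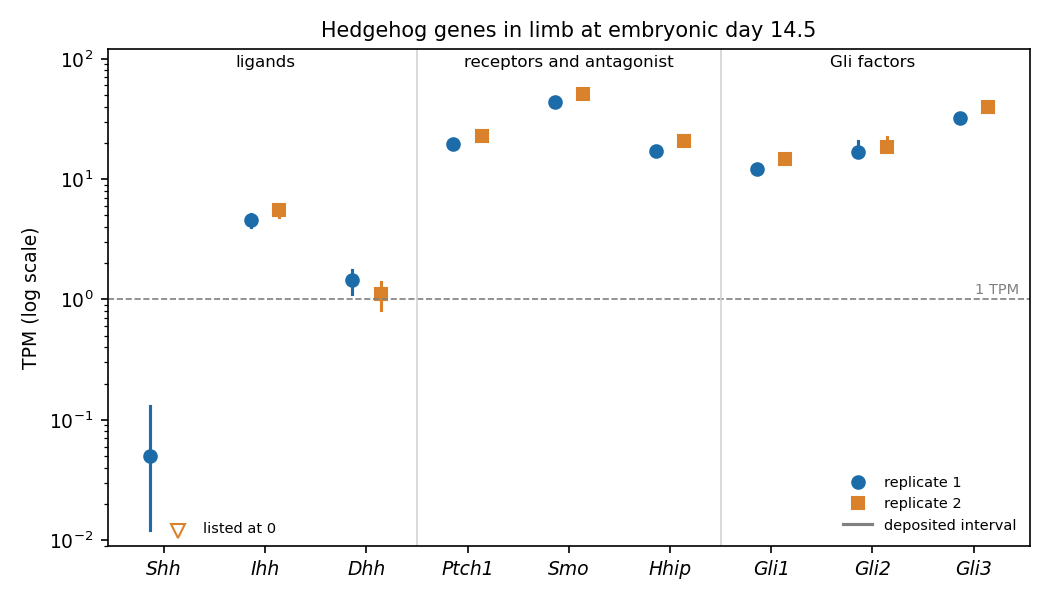
Level of each gene in TPM on a log axis, with circles for replicate 1, squares for replicate 2 and vertical lines for the interval deposited with each value, which is not always centred on it and whose coverage is unstated. Smo is the highest at 43.5 and 50.9 TPM, and Shh, at 0.05 TPM and 0, is the only 1 of the 9 genes under 1 TPM.

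Shh (ENSMUSG00000002633.3, mm10, chr5:28456815-28467256, minus strand), the ligand of the early limb bud, had 3 counts in replicate 1 and 0 in replicate 2. The 3 counts have an exact 95% Poisson interval of 0.619 to 8.77 and correspond to 0.05 TPM, and replicate 2 lists Shh at 0. A floor of 3 counts amounted to 0.0503 TPM in replicate 1 and 0.0539 TPM in replicate 2, so Shh was at that floor in replicate 1 and under it in replicate 2. A whole-limb library cannot tell a few cells with much of an RNA from many cells with little, and this holds for every level given here.

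Ihh (ENSMUSG00000006538.10, chr1:74945315-74951672, minus strand), the ligand of prehypertrophic cartilage, was the most abundant of the 3 ligands. It had 237 counts in replicate 1 (95% Poisson interval 208 to 269) and 268 in replicate 2 (237 to 302), or 4.61 and 5.58 TPM. Its mean of 5.10 ± 0.686 TPM (SD, n = 2) was above the level of 50.4% of protein-coding genes. Per length, Ihh exceeded Shh 91.7-fold in replicate 1, with an exact 95% interval of 31.0 to 448 that covers counting error only. In replicate 2, with Shh set at the floor of 3 counts, Ihh was 103.5-fold higher, a value without an interval. The 0 counts of Shh there have a 95% Poisson upper limit of 3.69, above that floor, so 103.5 is not a lower bound.

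Dhh (ENSMUSG00000023000.4, chr15:98891152-98898540, minus strand), the ligand of Schwann cells, had 75 counts in replicate 1 (95% Poisson interval 59.0 to 94.0) and 54 in replicate 2 (40.6 to 70.5). Its level was 1.44 and 1.11 TPM, close to the minimum of 1 TPM, with a mean of 1.27 ± 0.233 TPM (SD, n = 2). Ihh exceeded Dhh by 1.92 ± 0.44 on the log2 scale, at 4.61 and 5.58 TPM for Ihh against 1.44 and 1.11 TPM for Dhh. The libraries gave this ratio with 1 sign, 1.61 in replicate 1 and 2.23 in replicate 2. Ratios of this kind were taken within each library as log2 of (TPM + 0.1) over (TPM + 0.1), which understates ratios of low genes. The smallest p that an exact sign-flip test gives with 2 libraries is 0.5, so ratios carry no p-value. In the reference annotation GENCODE M21 Dhh overlaps Rhebl1, a gene of 199 and 231 counts on the same strand. The files give the Dhh transcript 2363 nt, against 4242 nt in that annotation, and the part of this length in the level of Dhh and in its ratio to Ihh was not tested.

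Promoter sequence is shown for Ihh, the leading ligand, and for Ptch1 and Hhip, the targets that bind the ligand, because their levels carry the comparisons that follow. The sequences are the 250 bases before the start of each gene in RefSeq (GRCm38.p6), 5′ to 3′ on the strand of the gene, and capitals mark GC boxes, the letters GGGCGG on either strand. The windows are chr1:74951673-74951922 for Ihh, chr13:63565736-63565985 for Ptch1 and chr8:80058009-80058258 for Hhip, all on the minus strand.
Ihh: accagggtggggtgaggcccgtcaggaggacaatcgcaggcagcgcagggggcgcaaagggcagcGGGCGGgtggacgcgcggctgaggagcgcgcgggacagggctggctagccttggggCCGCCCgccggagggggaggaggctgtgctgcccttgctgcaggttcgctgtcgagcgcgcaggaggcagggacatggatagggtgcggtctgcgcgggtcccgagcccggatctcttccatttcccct
Ptch1: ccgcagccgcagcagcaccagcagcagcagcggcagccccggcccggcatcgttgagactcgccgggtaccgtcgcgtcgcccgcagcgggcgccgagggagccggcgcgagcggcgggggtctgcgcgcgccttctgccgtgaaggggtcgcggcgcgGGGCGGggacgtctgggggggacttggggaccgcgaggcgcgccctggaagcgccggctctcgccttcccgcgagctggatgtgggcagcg
Hhip: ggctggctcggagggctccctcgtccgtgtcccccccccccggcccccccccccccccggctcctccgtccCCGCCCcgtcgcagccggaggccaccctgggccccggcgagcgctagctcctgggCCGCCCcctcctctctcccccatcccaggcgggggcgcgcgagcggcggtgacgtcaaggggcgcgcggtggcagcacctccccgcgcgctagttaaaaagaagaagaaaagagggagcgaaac

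RefSeq promoters of 300 bases, reaching 50 bases past the start, were matched for 7 of the 9 genes, all but Shh and Gli1. A GC box lay in 6 of these 7, all but Smo, and in 35.7% of 32851 promoters. The Gli motif GACCACCCA was in 0 of the 7 on either strand and in 0.253% of all promoters. Its core CCACCC, which is part of that motif, was in 6 of the 7, all but Ptch1, and in 31.5% of all promoters. The TATA box TATAAA was in 0 of the 7 and in 13.6% of all promoters. Over the full 300 bases the Ptch1 promoter held 47 CpG pairs, at or above the number in 98.8% of promoters. Those of Hhip and Ihh held 30 each, where the median promoter held 7. A match of letters is a description of the sequence and not a binding site.

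Among the receptors, Smo (ENSMUSG00000001761.6, chr6:29735503-29761365, plus strand), the transducer that Patched holds inactive, was the highest of the 9 genes. It had 3682 and 4022 counts and 43.5 and 50.9 TPM in replicates 1 and 2, with a mean of 47.2 ± 5.23 TPM (SD, n = 2), above 85.2% of protein-coding genes. Ptch1 (ENSMUSG00000021466.7, chr13:63508328-63573598, minus strand), the main receptor and inhibitor of Smo, had 3104 and 3306 counts and 19.7 and 22.9 TPM, with a mean of 21.3 ± 2.25 TPM. The log2 ratio of Ptch1 over Smo was −1.14 ± 0.01 (SD, n = 2), so that Ptch1 was the lower of the pair in each library by far more than the spread of the ratio.

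Hhip (ENSMUSG00000064325.3, chr8:79965851-80058006, minus strand), the secreted and membrane-bound antagonist that binds Hedgehog ligands, had 1378 and 1552.5 counts. Its level was 17.1 and 20.6 TPM, with a mean of 18.9 ± 2.47 TPM (SD, n = 2). The log2 ratio of Hhip over Ptch1 was −0.18 ± 0.04, from 17.1 and 20.6 TPM for Hhip against 19.7 and 22.9 TPM for Ptch1. Within each library Hhip was the lower and the deposited intervals did not overlap, but the level of Hhip in replicate 2 lay above that of Ptch1 in replicate 1. The files give the main Hhip transcript 4582 nt, against 9074 nt in GENCODE M21, and its part in the level was likewise not tested.

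All 3 Gli genes were above the median protein-coding gene at 4.93 TPM, and the order among them was Gli3, Gli2 and Gli1. By mean TPM, Gli2 and Gli1 lay below 18.6 TPM, the median of protein-coding genes at 1 TPM or more in both libraries. Gli3 (ENSMUSG00000021318.11, chr13:15463235-15730026, plus strand), whose protein acts mainly as the repressor of the pathway, had 4835 and 5275 counts and 32.3 and 39.4 TPM. Its mean was 35.9 ± 5.02 TPM (SD, n = 2), above 81.0% of protein-coding genes and second only to Smo among the 9.

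Gli2 (ENSMUSG00000048402.10, chr1:118834132-119053619, minus strand), whose protein is the main activator downstream of Smo, had 1886 and 2016 counts and 16.95 and 18.7 TPM, with a mean of 17.8 ± 1.21 TPM. Gli1 (ENSMUSG00000025407.6, chr10:127329882-127341974, minus strand), an activator whose own transcription depends on the pathway, had 1000 and 1135 counts and 12.2 and 14.8 TPM, with a mean of 13.5 ± 1.86 TPM. Gli1 overlaps Arhgap9, a gene of 164 and 201 counts on the opposite strand, and Gli3 overlaps Gm6556, of 68.45 and 82.6 counts, also on the opposite strand. Genes with fewer counts also overlap Ptch1 (A930032L01Rik, 38 and 45 counts, same strand), Smo (the pseudogene Gm13717, 9 and 10 counts, same strand) and Hhip (Gm27820, 16.8 and 14.5 counts, opposite strand). The sources used here do not give the strand of the libraries, so reads from such a pair cannot be told apart with certainty.

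The log2 ratio of Gli3 over Gli2 was 1.00 ± 0.10 (SD, n = 2) and that of Gli3 over Gli1 was 1.40 ± 0.00. Gli3 was therefore the higher of each pair by more than the spread between the libraries. The ratio of Gli2 over Gli1 was smaller, 0.40 ± 0.10, from 16.95 and 18.7 TPM for Gli2 against 12.2 and 14.8 TPM for Gli1. It did not hold when only the leading transcript of each gene was taken, a setting chosen after seeing the data, with Gli2 at 12.1 and 13.9 TPM against 12.2 and 14.8 TPM for Gli1 and a log2 ratio of −0.05 ± 0.06. In that setting Gli3 stayed the higher of each pair, but Gli3 over Gli1 fell to 0.90 ± 0.07, while Gli3 over Gli2 was 0.95 ± 0.01. The deposited length of the Gli1 transcript is 3665 nt, against 4057 nt in GENCODE M21, and its part in these ratios was not tested. The log2 ratio of Gli1 over Ptch1, both targets of the pathway, was −0.66 ± 0.05.

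**Figure D2:**
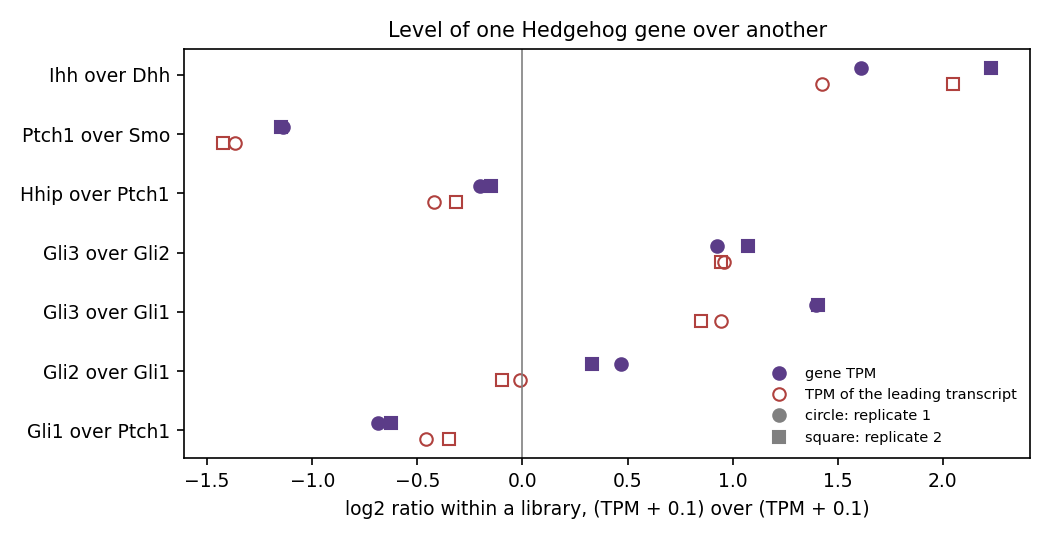
Log2 ratio of the level of one gene over another within each library, with filled symbols for gene TPM, open symbols for the TPM of the leading transcript, circles for replicate 1 and squares for replicate 2. The ratio of Gli2 over Gli1 is the only 1 of the 7 drawn that changes sign, with means of 0.40 for genes and −0.05 for leading transcripts.

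By mean TPM the order of the 9 genes was Smo, Gli3, Ptch1, Hhip, Gli2, Gli1, Ihh, Dhh and Shh, and each library gave the same order. Neighbours whose values overlapped between libraries were Ptch1 with Hhip and Hhip with Gli2. Hhip and Gli2 were the only neighbours whose deposited intervals overlapped within a library, and they did so in both. With posterior mean TPM, another deposited estimate of the level, Gli2 was the higher in replicate 1, at 18.1 against 16.8 TPM. Hhip was the higher in replicate 2 by that estimate, at 20.2 against 19.5 TPM. With the leading transcript of each gene in place of the gene, 7 of the 9 kept their place, and Gli1 and Gli2 changed places.

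The 9 genes were listed with 29 transcripts, of which 19 were above 0 in both libraries and 6 at 0 in both. Shh, Dhh, Smo and Gli1 had a single transcript each, and the other 5 genes had from 2 to 9. The leading transcript, the one with the largest share of its gene's TPM, was the same in both libraries for all 5 genes with several transcripts. For Dhh, Smo and Gli1 it was fixed by their single transcript, and Shh had none in replicate 2. Over the series 91.2% of 10023 genes with several transcripts at 1 TPM or more had the same leading transcript. Because TPM is per length, a short transcript can hold a large share of TPM on few reads, and both shares are given.

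For Ptch1 the leading transcript was not the longest coding form. Ptch1-202, a coding transcript of 7002 nt, held 85.3% and 82.5% of the gene's TPM and 85.9% and 84.7% of its reads in replicates 1 and 2. Ptch1-201, of 7725 nt, held 6.71% and 5.83% of TPM, and Ptch1-204, of 7657 nt and annotated as a target of nonsense-mediated decay, held 5.52% and 7.14%. In GENCODE M21 the coding sequence has 3891 nt in Ptch1-202 and 4302 nt in Ptch1-201. Ptch1-202 starts at chr13:63564535, 1200 nt downstream of the start of Ptch1-201 that the promoter window above precedes.

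The junctions of the first exon with the second show how these Ptch1 transcripts differ at their 5′ end. Each line gives 15 bases of the first exon in lower case and, in capitals, the 15 bases of the shared second exon at chr13:63563801-63563815, minus strand, from GENCODE M21 transcripts on GRCm38, 5′ to 3′.
Ptch1-202: ccgagcacaaatagtGGGAAGGCTACTGGC
Ptch1-201: gagcagatttccaagGGGAAGGCTACTGGC
Ptch1-204: ctgaggccggctatgGGGAAGGCTACTGGC

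In Ptch1-201 and Ptch1-204 the bases before the junction are coding, and in Ptch1-202 they are not. Ptch1-202 and Ptch1-201 share 21 exons, of 24 and 23, and differ at both ends, with first exons of 78 and 374 nt and a stretch of 419 nt spliced out of the last exon in Ptch1-202. Which of these differences set the assignment of reads cannot be told from the deposited values.

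For Gli2 the share depended on the measure. Gli2-201, the full coding transcript of 6637 nt, held 71.4% and 74.3% of TPM but 96.4% of reads in each library. Gli2-202, a processed transcript of 367 nt, held 18.3% and 12.8% of TPM on 19.1 and 13.7 counts, which were 1.01% and 0.682% of the gene's reads. Its deposited intervals ran over 1.05 to 5.72 TPM in replicate 1 and 0.568 to 5.09 TPM in replicate 2. Of the other forms, Gli2-204, annotated as a target of nonsense-mediated decay, held 5.35% and 7.71% of TPM, and the coding form Gli2-206 held 5% and 3.59%. The level of Gli2 as a gene, and with it the ratio over Gli1, thus includes short transcripts with few reads.

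The junctions below show the sequence that separates the long and the short Gli2 form. Capitals mark the 15 bases of the exon that both share, at chr1:118890387-118890401, minus strand, from the same annotation.
Gli2-201: tagccgcccacggagTTCCTCAGCAGCTCC
Gli2-202: agactgaaaccccagTTCCTCAGCAGCTCC

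The upstream bases are coding in Gli2-201 and belong to the noncoding first exon of Gli2-202.

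Gli3, Hhip and Ihh each had 1 leading coding transcript with 1 or more shorter forms. Gli3-201, of 8170 nt, held 73.0% and 67.9% of TPM and 90.6% and 87.9% of reads. The coding form Gli3-202, of 2004 nt, held 13.7% and 16.6% of TPM on 4.02% and 5.08% of reads. Gli3-203, a retained-intron form, held 12.3% and 15.4% of TPM on 5.34% and 6.98% of reads. The share of Gli3-201 was the lower in replicate 2 and those of both shorter forms the higher, a difference with no test.

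Hhip-201 held 73.2% and 73.4% of TPM and 93.8% of reads in each library, and Hhip-202, a processed transcript of 909 nt, held 26.8% and 26.6% of TPM on 6.22% and 6.15% of reads. Ihh-201, of 2468 nt, held 87.6% and 87.9% of TPM. The retained-intron form Ihh-202 held 12.4% and 12.1% of TPM on 7.11% and 6.97% of reads. In Hhip and Ihh the shares of the libraries lay within 0.3 percentage points of each other.

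**Figure D3:**
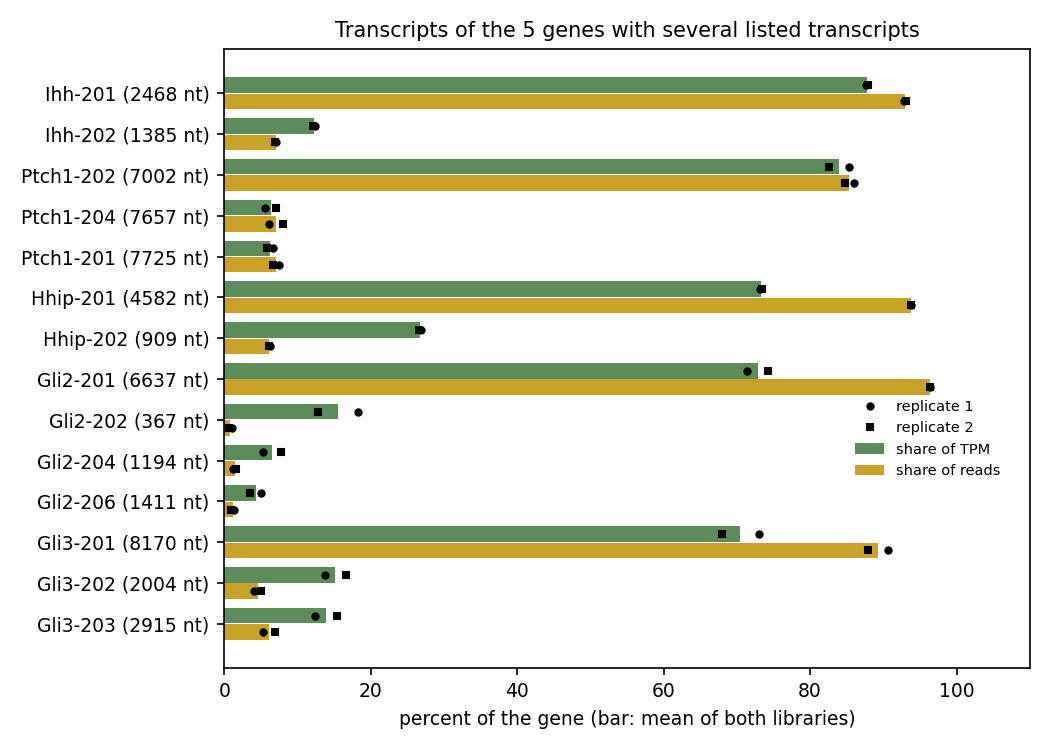
Share of each gene's TPM (green bars) and of its reads (yellow bars), in percent, held by the transcripts with 5% or more of TPM in at least 1 library, with bars at the mean of both libraries and points for replicate 1 (circles) and replicate 2 (squares). Gli2-202, of 367 nt, has 18.3% and 12.8% of TPM but 1.01% and 0.682% of reads.

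Genes that act with Ihh in the growth plate were all present. In that loop Ihh acts through Pthlh, the parathyroid hormone-related peptide, whose receptor Pth1r delays the maturation of cartilage cells to the hypertrophic state marked by Col10a1. Ihh stood at 4.61 and 5.58 TPM, against 10.2 and 12.2 TPM for Pthlh, and the log2 ratio of Ihh over Pthlh was −1.12 ± 0.02. Ihh over Pth1r was −3.85 ± 0.16, with Pth1r at 73.1 and 75.5 TPM, and Ihh over Col10a1 was −1.32 ± 0.31, with Col10a1 at 13.6 and 12.0 TPM. The ligand was thus the lowest of these 4 genes in each library.

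Dhh stood at 1.44 and 1.11 TPM beside Sox10, a transcription factor of the Schwann lineage, at 6.77 and 5.76 TPM, with a log2 ratio of −2.22 ± 0.08. Of 6 markers of that lineage, 5 reached 1 TPM in both libraries, and Cdh19 stood at 0.72 and 0.65 TPM. The lineage list summed to 40.1 TPM in replicate 1 and 36.6 TPM in replicate 2, and its part in the level of Dhh was not tested.

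Of 63 further genes of the pathway in 7 lists, 58 reached 1 TPM in both libraries. The median of these 63 genes was 13.8 TPM, against 0.085 TPM for all annotated genes and 4.93 TPM for protein-coding genes. The detected protein-coding genes, at 1 TPM or more in both libraries, had a higher median of 18.6 TPM. All 6 genes of the list named ligand release and lipidation were detected. Its highest was the glypican gene Gpc3, itself neither a release factor nor an acyltransferase, at 758 and 855 TPM. The release factor gene Disp1 followed at 26.1 and 28.5 TPM and the acyltransferase gene Hhat at 9.67 and 11.3 TPM. Of 4 co-receptor genes 3 were detected, and Lrp2 had 5 counts in replicate 1 and 0 in replicate 2. Gas1, which helps Patched bind the ligand, stood at 313 and 397 TPM and was above every gene of the 9.

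The co-receptors Boc and Cdon stood at 46.2 and 55.9 TPM and at 29.2 and 30.0 TPM. Gas1 exceeded Cdon by 3.57 ± 0.22 on the log2 scale, and the log2 ratio of Cdon over Boc was −0.78 ± 0.16. With the TPM of the leading transcript, chosen after seeing the data, these ratios moved to 4.74 ± 0.13 and −1.93 ± 0.09. All 12 regulators of Gli proteins were detected with a median of 37.95 TPM, led by genes of protein kinase A and casein kinase 1, which phosphorylate Gli proteins. These were Prkar1a at 276 and 283 TPM, Csnk1a1 at 204 and 222 TPM and Prkaca at 121 and 114.8 TPM. Sufu, which holds Gli proteins in the cytoplasm, stood at 26.8 and 29.4 TPM, and Gli2 over Sufu had a log2 ratio of −0.66 ± 0.00. With leading transcripts that ratio was −0.93 ± 0.07.

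All 10 genes of the primary cilium and of the complex that acts with Smo were detected with a median of 16.7 TPM, led by the cilium motor gene Kif3a at 44 and 55.45 TPM, Evc at 18.3 and 19.85 TPM and Evc2 at 16.9 and 20.4 TPM. Of 12 genes known as Hedgehog targets 11 were detected, led by the cyclin genes Ccnd2 at 248 and 277 TPM and Ccnd1 at 91.7 and 106 TPM and by Osr2 at 84.8 and 105 TPM, and Foxf1 stood at 0.21 and 0.12 TPM. Of 12 regulators of Shh in the limb bud 9 were detected, led by Hoxd13 at 42 and 54.1 TPM, Hoxd12 at 29.6 and 40.7 TPM and Etv5 at 27.2 and 28.3 TPM. The apical ridge factors Fgf8 and Fgf4 stood at 0.23 and 0.35 TPM and at 0.70 and 1.16 TPM, and Etv2 had 0 and 3 counts. All 7 genes of the growth plate list were detected. Lrp2, Foxf1, Fgf8, Fgf4 and Etv2 were named after their values were seen.

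**Figure D4:**
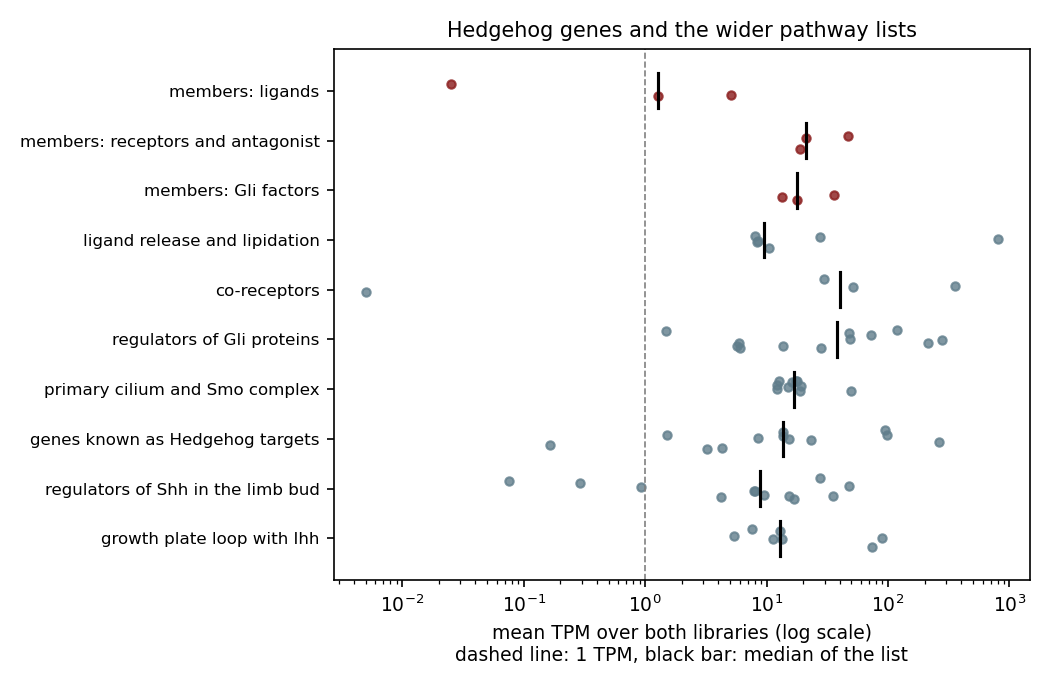
Mean TPM over both libraries, on a log axis, of each of the 9 genes (red) and of 63 further pathway genes (grey) in 7 lists, where black bars mark list medians and the dashed line 1 TPM. The ligand genes have a median of 1.27 TPM, and the receptor and Gli genes have medians of 21.3 and 17.8 TPM.

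The receptor and Gli genes were slightly lower in replicate 1 than in replicate 2 by a test of counting error. An exact binomial test on rounded expected counts was run over all features whose counts summed to at least 10, and p-values were adjusted by the Benjamini-Hochberg method. It compares these 2 libraries, not conditions. Of the 8 genes tested 6 differed, where 27.5% of 19154 tested features did (37.3% by unadjusted p), and all 6 were lower in replicate 1 and so higher in replicate 2, where 12.7% of tested features were called in that direction. Their log2 ratios of replicate 1 over replicate 2 ran from −0.20 for Gli1 to −0.11 for Ptch1, that is 1.08- to 1.15-fold higher in replicate 2. The test calls smaller differences at higher counts. Each of the 6 genes had 1000 or more counts per library, while the shares cover features with summed counts from 10 upward. Ihh, at 237 and 268 counts, was not called at a log2 ratio of −0.20. No share over features of like counts was computed.

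By the exact binomial test the adjusted p was 5.33e-06 for Gli3 and 7.55e-05 for Smo, both with a log2 ratio of −0.15. It was 0.00222 for Hhip (−0.19), 0.00668 for Gli1 (−0.20), 0.0102 for Ptch1 (−0.11) and 0.0429 for Gli2 (−0.12). Gli2 missed the threshold of 0.05 with DESeq2 size factors, at an adjusted p of 0.0650, and with no filter on low counts, at 0.0547. Ihh, with a log2 ratio of −0.20, and Dhh, with 0.45, did not pass, at adjusted p = 0.272 and 0.189 by the same test, and Shh was under the count minimum.

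In edgeR's exact test, where the common dispersion counts the typical difference between the libraries as error, 0 of the 8 genes were called, against 0.668% of 16920 tested genes. Of the same 8 genes 0 had an unadjusted p under 0.05, against 6.62% of tested genes. The biological coefficient of variation of the libraries was 0.0992. The markers of limb mesenchyme differed in the same direction as the receptor and Gli genes, with 6 of 6 higher in replicate 2 and a summed level of 258 and 319 TPM in replicates 1 and 2. The 3 muscle markers differed in the other direction, with a summed level of 1117 and 818 TPM in replicates 1 and 2. By the exact binomial test 2 of 3 cartilage markers were higher in replicate 1 and 1 in replicate 2. Of prehypertrophic and hypertrophic cartilage, Schwann lineage, and epidermis and hair placode markers, 2 of 3, 2 of 6 and 2 of 5 were higher in replicate 1. In replicate 2 these numbers were 0, 0 and 1. Of all tested features 14.8% were higher in replicate 1 and 12.7% in replicate 2. The part of any of these lists in the differences was not tested. Hoxd13, Sox9, Pth1r and Col10a1 are each in a marker list and in a pathway list, so the numbers of those lists are not independent.

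**Figure D5:**
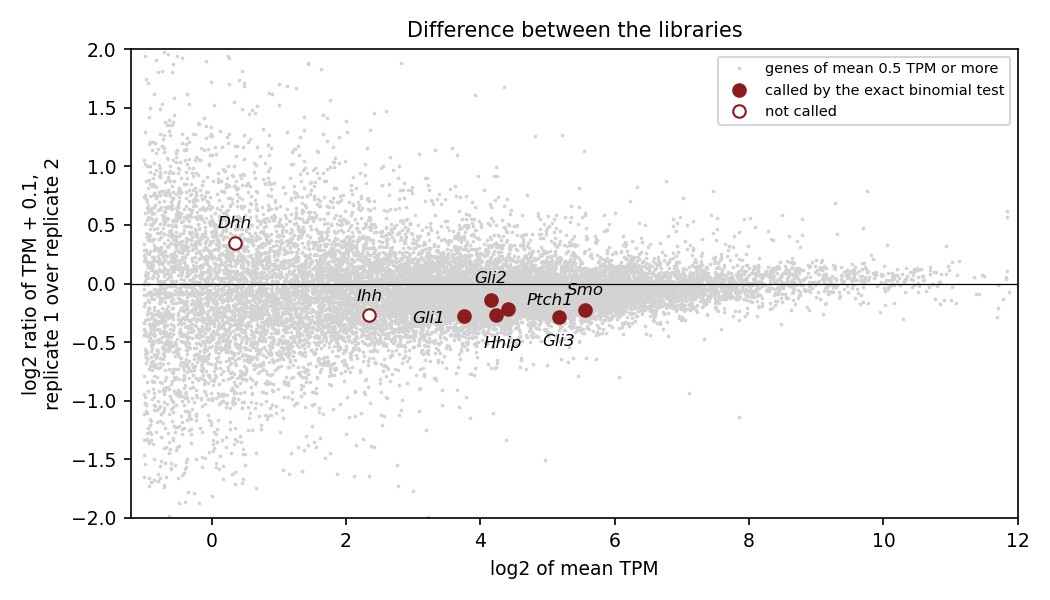
Log2 ratio of TPM + 0.1 in replicate 1 over replicate 2 against log2 of mean TPM, with grey points for genes of a mean of 0.5 TPM or more that lie within the drawn range and red points for 8 of the 9 genes, filled where the exact binomial test on counts called a difference. The 6 called genes lie below the line of no difference, inside the cloud of genes of like level.

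Of the 63 further pathway genes 61 were tested, 6 were higher in replicate 1, 21 were higher in replicate 2 and 34 did not pass, where 14.8% of all tested features were higher in replicate 1 and 12.7% in replicate 2. Those shares too cover features with summed counts from 10 upward, and none was computed at like counts. By edgeR's exact test 0 of the 59 pathway genes tested were called. By the exact binomial test the genes higher in replicate 2 included 7 of 12 targets, 4 of 10 genes of the cilium and the Smo complex (Kif3a, Dync2h1, Ift172 and Evc2) and 2 of 4 co-receptor genes (Gas1 and Boc). Of the 12 regulators of Gli proteins 3 were higher in replicate 1 (Cul3, Prkaca and Prkar1a) and 1 was higher in replicate 2 (Ulk3), where Cul3 and Ulk3 were named after their values were seen. Of the 12 regulators of Shh 11 were tested, 4 were higher in replicate 2 and 0 in replicate 1. In the list named ligand release and lipidation, Gpc3 and Scube1 were higher in replicate 2. Scube2 was higher in replicate 1, at 9.03 TPM there and 7.10 TPM in the other library. In the growth plate list Sp7 and Col10a1 were higher in replicate 1, with Sp7 at 8.99 and 6.11 TPM, and Sox9 was higher in replicate 2, at 75.6 and 102 TPM in replicates 1 and 2.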

How the data were processed

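Total RNA of limb was measured in 2 libraries of 1 group. Expected counts, deposited per gene and per transcript, estimate read numbers and can be fractional, per the file headers. TPM was deposited by the authors as a level per length, scaled over all features including spike-ins. Each transcript's share of its gene in percent of TPM, and an interval for each TPM value, are likewise deposited columns, and what level the intervals have is not stated. The build was mm10 with GENCODE M4, per the notes filed with the samples, while the quantification program and the strandedness are not given in the sources used. Symbols and positions came from GENCODE M21 on GRCm38 by Ensembl identifier, which matched 42462 of 43346 identifiers, and promoters from RefSeq.

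The members and gene lists were chosen with earlier results of these data known. Named genes were the 9 members, the genes of 15 planned ratios (a further planned ratio is not reported here), the 3 highest genes of each list, genes that differed between libraries in lists of up to 10 genes, and transcripts with 5% or more of TPM in a library. Levels were taken as TPM, with detection at 1 TPM, and ratios used a pseudocount of 0.1. Expected counts were rounded and tested between libraries with an exact binomial test at TMM library sizes without spike-ins (10 or more counts, Benjamini-Hochberg adjustment over the whole table, threshold 0.05). A prior check used simulated counts with counting error only, so it does not cover the further spread between these libraries. The exact binomial test was used because 1 library on each side leaves no residual spread for a quasi-likelihood test. Intervals and floors cover counting error only, since no molecular identifiers are recorded. Tools were Python 3.11.15, numpy 2.4.6, pandas 2.3.3, scipy 1.17.1, matplotlib 3.10.9, R 4.3.3, edgeR 4.0.16 and DESeq2 1.42.0. Alternatives were other TPM minimums, pseudocounts, posterior mean TPM, scalings, count filters, edgeR's exact test, each library alone and, chosen after seeing the data, the TPM of the leading transcript.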

Additional observations from a re-analysis of the deposited data

How the results depend on the processing

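The count of 8 detected members became 7 at a minimum of 2 TPM and was 8 under a minimum of 0.5 TPM, posterior mean TPM and without either replicate. The count of 58 detected pathway genes lay between 56 and 59 under these settings, and between 58 and 59 without either replicate. All 15 ratios had 1 direction in both libraries under each pseudocount and with posterior mean TPM. With the TPM of the leading transcript, chosen after seeing the data, 14 ratios kept the direction of the gene level, 9 of them moved by more than the spread between libraries, and Gli2 over Gli1 turned to −0.054. Ihh over Shh, 5.40 on the log2 scale, was 2.57 with a pseudocount of 1 and 7.70 with 0.01, since Shh was at or near 0. The 6 members that differed between the libraries became 5 with DESeq2 size factors or no filter on low counts, stayed 6 with total or spike-in counts as the scaling, and became 0 with edgeR's exact test, which counts the typical difference between these libraries as error. The median log2 ratio of replicate 1 over replicate 2 over all genes ran from −0.07 for deposited TPM to 0.01 with DESeq2 size factors, and that of the members from −0.25 to −0.14. The leading transcript was the same in both libraries for 8 members, 3 of them with a single transcript, and for 9 with posterior means. No paired analysis was possible because there is only 1 group. Shh, with 3 and 0 counts, and Dhh, with 75 and 54, are measured with little precision at this depth, and 2 libraries give no test of a ratio between genes.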
